A study of Oryza sativa Japonica Group with 6 samples.

Results

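The light-harvesting proteins of photosystem II, the Lhcb family, were examined in shoots of Nipponbare rice seedlings during dehydration and rehydration. Members were the 8 loci of a list given collectively for Lhcb1 to Lhcb6, and every transcript model whose identifier begins with one of them was taken from the RPKM table. These were 8 of 55801 loci and 13 of 66153 transcript models. Their identifiers in the MSU 7.0 annotation place them on chromosomes 1, 3, 4, 7, 9 and 11. Start and end positions and exon structure were not analysed here. The study's tables call LOC_Os11g13890 a chlorophyll A-B binding protein, and the other 7 loci are given below by identifier, because the sources used here do not say which locus encodes which Lhcb protein.

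All seedlings were of the wild-type cultivar Nipponbare, grown in continuous light on half-strength MS medium. Rehydration shoots came from seedlings that recovered with water for 24 h after 8 h of air-drying, and they were 11 days old when sampled. Dehydration shoots came from 10-day-old seedlings air-dried for 8 h on paper, and control shoots came from undried 10-day-old seedlings. Each group had 2 libraries (replicates 1 and 2), and each library was a pool of shoots from 20 plants. Rehydration shoots were a day older than the others, so age and re-watering cannot be told apart in them. They also held both recovered and damaged leaf parts, which a bulk library averages.

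Lhcb proteins are encoded in the nucleus, imported into the chloroplast and folded around chlorophyll a, chlorophyll b and carotenoids in the thylakoid membrane. Lhcb1, Lhcb2 and Lhcb3 form the trimers of the major antenna, LHCII, which is the most abundant membrane protein of green leaves. Lhcb4, Lhcb5 and Lhcb6, also called CP29, CP26 and CP24, are monomers that sit between those trimers and the photosystem II core and pass excitation energy inward. The antenna also takes part in releasing surplus light energy as heat, and its transcripts are known to be lowered by drought in many plants.

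LOC_Os11g13890 was also a target of qRT-PCR in the study, and its primers are shown as the designed oligonucleotides of that assay. Both are 20 bases long and written 5′ to 3′ in lower case, and the identifier of the locus places it on chromosome 11. The primers were not aligned here to the models of the locus or to other members.
LOC_Os11g13890 forward: ggttcttcatccaggcctac
LOC_Os11g13890 reverse: catctcccaactcgacgata

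RPKM is the number of reads of a transcript scaled to the length of that transcript and to all reads mapped in the library, so that it can be compared between genes. The RPKM of the models of a locus were summed. As a check of the tissue, the 3 loci annotated as Rubisco small chain, a leaf marker, together reached 9947 to 12989 RPKM in rehydration shoots, 405 to 1358 RPKM in dehydration shoots and 11334 to 15841 RPKM in control shoots. The sum of 3 root marker loci stayed between 3.32 and 11.5 RPKM in the 6 libraries, and 2 of them were listed at 0 in both dehydration libraries. The Rubisco loci were themselves far lower after drying, so they do not check the tissue in dehydration shoots. Replicates were separate pools, so the p-values below weigh changes against the spread between pools. The fit estimates that spread jointly over the 3 groups and moderates it with that of other loci.

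The Lhcb loci were among the most abundant transcripts of watered shoots and dropped out of that class on drying. Ranked by RPKM among all 55801 loci, they stood at positions 15 to 90 in rehydration shoots, 195 to 24154 in dehydration shoots and 13 to 87 in control shoots. All 16 values lay in the top 100 in rehydration shoots, 0 of 16 in dehydration shoots and all 16 in control shoots. The 8 loci together made up 1.75 and 1.54% of the summed RPKM in rehydration shoots, 0.0625 and 0.146% in dehydration shoots and 2.04 and 1.77% in control shoots. The mean share was 1.65% ± 0.15 in rehydration, 0.104% ± 0.059 in dehydration and 1.90% ± 0.20 in control (SD, n = 2 each). The dehydration libraries lay apart from all others. With 2 libraries against 2, an exact permutation test cannot give a p below 0.333, so no test of these shares was made.

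**Figure D1:**
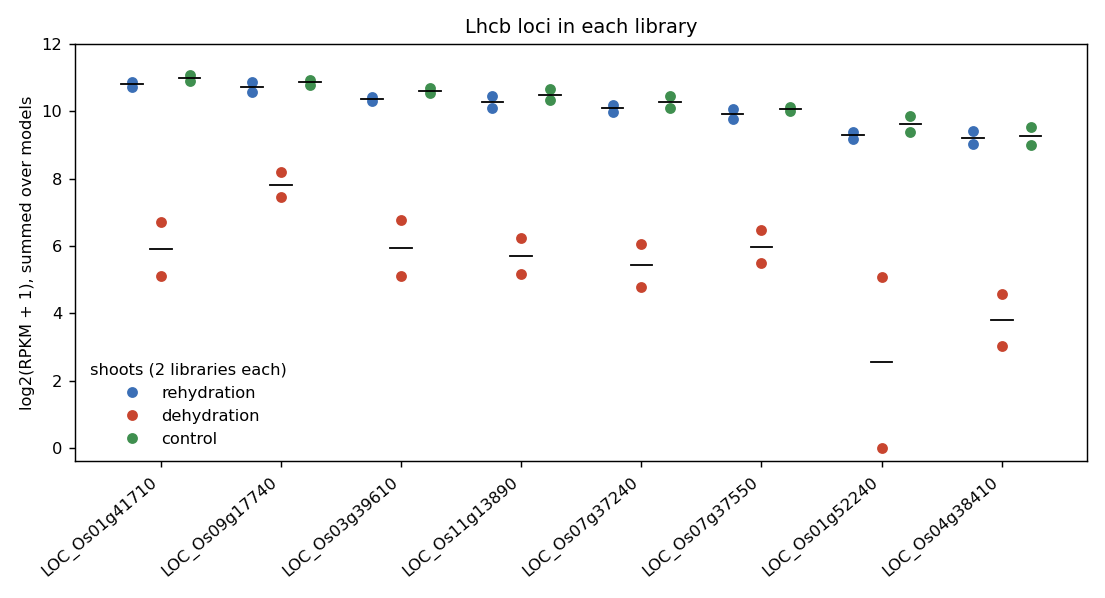
Level of each of the 8 Lhcb loci as log2(RPKM + 1), summed over transcript models, with 1 point per library, a black bar at the mean of the 2 points, and the groups side by side from left to right as rehydration, dehydration and control. Rehydration and control points lie close together for every locus and all dehydration points lie below them, with LOC_Os01g52240 at 0 in dehydration replicate 1 and LOC_Os09g17740 the highest in dehydration.

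LOC_Os01g41710 was the most abundant member in watered shoots. It had 1884 and 1699 RPKM in rehydration shoots, 33.8 and 103 RPKM in dehydration shoots and 2178 and 1921 RPKM in control shoots. Its dehydration values averaged 3.34% of control, and the rehydration values lay just below both control values.

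LOC_Os09g17740 was second in watered shoots and kept the most transcript on drying. It had 1884 and 1514 RPKM in rehydration shoots, 173 and 291 RPKM in dehydration shoots and 1967 and 1769 RPKM in control shoots. Dehydration shoots held 12.4% of the control mean, and in each dehydration library this locus stood above the 7 others.

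A set of 4 loci of intermediate level followed. LOC_Os03g39610 had 1363 and 1274 RPKM in rehydration shoots, 33.5 and 109 RPKM in dehydration shoots and 1648 and 1489 RPKM in control shoots. LOC_Os11g13890 had 1416 and 1106 RPKM in rehydration shoots, 34.9 and 74.8 RPKM in dehydration shoots and 1612 and 1295 RPKM in control shoots. The dehydration means of these loci were 4.54 and 3.77% of their control means. LOC_Os07g37240 had 1177 and 1003 RPKM in rehydration shoots, 26.6 and 65.7 RPKM in dehydration shoots and 1414 and 1101 RPKM in control shoots. LOC_Os07g37550 had 1064 and 879 RPKM in rehydration shoots, 44.0 and 87.4 RPKM in dehydration shoots and 1107 and 1033 RPKM in control shoots. For these 2 loci the dehydration means were 3.67 and 6.14% of the control means. In all 4, the dehydration libraries were far below the rest, while rehydration overlapped control except for LOC_Os03g39610, where both rehydration values were below both control values.

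The last pair were the least abundant members in every group. LOC_Os04g38410 had 677 and 523 RPKM in rehydration shoots, 7.13 and 22.8 RPKM in dehydration shoots and 739 and 515 RPKM in control shoots, so that dehydration shoots held 2.38% of the control mean. Rehydration and control overlapped. Even in the dehydration libraries, 126 and 442 reads lay behind these values, computed with the smallest transcript length that gives whole reads in every library.

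LOC_Os01g52240 had 579 and 674 RPKM in rehydration shoots, was listed at 0 in dehydration replicate 1 and at 32.97 RPKM in dehydration replicate 2, and had 922 and 664 RPKM in control shoots. At the smallest length these were 0 and 426 reads in dehydration shoots, against 11988 and 7930 reads in control shoots. A count of 0 allows up to 0.255 RPKM in that library, with 3 reads as the bound and by counting error only. The counts of this model were even in every library, so reads may have been counted in pairs. The bound would then be larger, here and for other models with even counts below. The RPKM of dehydration replicate 2 alone was 4.16% of the control mean. Members of this family can be close in sequence, and how reads shared by similar loci or by models of a locus were assigned is not given in the sources used here, so the division of reads among such loci is uncertain.

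In rehydration and control shoots the order of mean levels was the same, from LOC_Os01g41710 through LOC_Os09g17740, LOC_Os03g39610, LOC_Os11g13890, LOC_Os07g37240, LOC_Os07g37550 and LOC_Os01g52240 to LOC_Os04g38410. In both groups only 2 neighbouring steps separated loci whose replicate ranges did not overlap, namely LOC_Os09g17740 above LOC_Os03g39610 and LOC_Os07g37550 above LOC_Os01g52240. In dehydration shoots LOC_Os09g17740 came first, apart from LOC_Os03g39610, and every later neighbour overlapped with the next.

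The make-up of the family also differed between dehydration shoots and the rest. LOC_Os09g17740 supplied 18.8 and 17.5% of the RPKM of the 8 loci in rehydration shoots, 49.01 and 36.97% in dehydration shoots and 16.98 and 18.07% in control shoots. LOC_Os01g41710 supplied 18.8 and 19.6% in rehydration shoots, 9.57 and 13.1% in dehydration shoots and 18.8 and 19.6% in control shoots. LOC_Os04g38410 supplied 6.74 and 6.03% in rehydration shoots, 2.02 and 2.89% in dehydration shoots and 6.38 and 5.27% in control shoots. The dehydration values of these 3 loci did not overlap with the other groups. The same held for LOC_Os01g52240, LOC_Os07g37240 and LOC_Os11g13890, whose shares were also lower in both dehydration libraries. Only LOC_Os03g39610 overlapped, since its share in dehydration replicate 2 lay above that in rehydration replicate 1. The shares are parts of a whole, so the larger share of LOC_Os09g17740 in itself lowers those of the others. LOC_Os07g37550 stood slightly above the other groups in dehydration, with 10.6 and 10.1% in rehydration shoots, 12.5 and 11.1% in dehydration shoots and 9.55 and 10.6% in control shoots. These shares are a description, since 0.333 is again the smallest exact p.

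**Figure D2:**
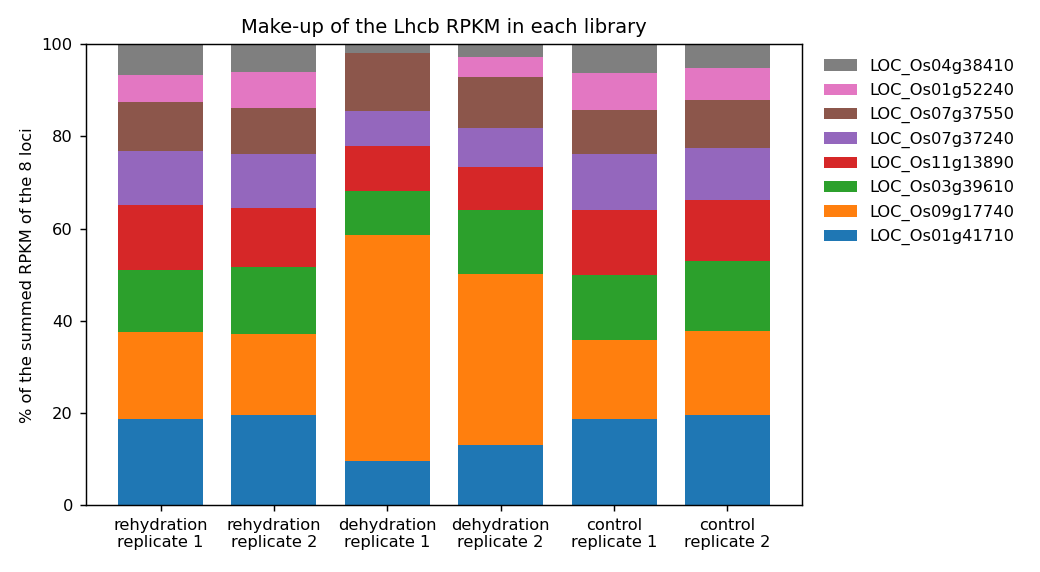
Stacked bars of the percentage that each of the 8 loci contributed to their summed RPKM, with 1 bar per library in the order rehydration, dehydration and control. LOC_Os09g17740 takes 49.01 and 36.97% of the dehydration bars and 16.98 to 18.76% of the other 4 bars.

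The comparison of dehydration with control asks how far drying alone changed the transcripts. All 8 Lhcb loci fell, with changes of −7.07 to −3.05 on the log2 scale of RPKM + 1. The changes were −3.05 for LOC_Os09g17740 (SE 0.35, adjusted p = 0.000587), −4.08 for LOC_Os07g37550 (SE 0.35, adjusted p = 0.000215) and −5.47 for LOC_Os04g38410 (SE 0.48, adjusted p = 0.000234) in limma, with Benjamini-Hochberg adjustment over all loci tested. LOC_Os11g13890, the annotated chlorophyll-binding locus, fell by 4.79 (SE 0.39, adjusted p = 0.000182). The remaining loci were LOC_Os03g39610 at −4.67 (SE 0.50), LOC_Os07g37240 at −4.86 (SE 0.42) and LOC_Os01g41710 at −5.09 (SE 0.49), with adjusted p in limma of 0.000465, 0.000222 and 0.000316. A call required an adjusted p under 0.01 and a fold over 2, and 8 of 8 members were called lower, against a background of 21.9% of the 20816 loci tested. Both dehydration libraries lay below both control libraries in 8 of 8 members, which held for 51.1% of all loci tested. In bulk shoots, fewer cells of a type and less RNA per cell cannot be told apart.

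The largest fitted change, −7.07 for LOC_Os01g52240 (SE 1.37, adjusted p = 0.00458 in limma), depends on the value that was added to its 0, and became −8.75 when 0.1 replaced 1. It also depends on the dehydration library, and was −4.53 without dehydration replicate 1, smaller than the −4.70 of LOC_Os04g38410 in the same fit, and −9.61 without dehydration replicate 2. Its call was lost with a pseudocount of 0.1 (adjusted p = 0.0193) and without the filter on low values (adjusted p = 0.0151), both in limma. The call was also lost without control replicate 1 (change −6.83) and without control replicate 2 (change −7.31). The remaining 7 loci were called in each of these alternatives. The median change of the members was −4.83, against −0.35 for all loci tested. With median-ratio scaling, which moves the median of all loci to −0.03, the members' median was −4.43. In rehydration minus dehydration the medians were 4.62 for the members and 0.28 for all loci, and 4.24 and −0.02 with that scaling.

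In dehydration, replicate 2 was above replicate 1 in all 8 members, by 1.68 to 3.25 times in the 7 with reads in both, while 36.4% of all loci tested were higher in replicate 1. The 3 Rubisco small chain loci had 202, 184 and 19.0 RPKM in replicate 1 and 706, 552 and 99.4 RPKM in replicate 2. In control, replicate 1 was above replicate 2 in all 8 members, by 1.07 to 1.43 times, while 38.5% of all loci tested were higher in replicate 1. In rehydration, replicate 1 was above replicate 2 in 7 of 8 members, LOC_Os01g52240 being the exception, against 49.4% of all loci tested. The part of this replicate difference in the results was not tested. All 8 loci were called lower without dehydration replicate 1 and likewise without dehydration replicate 2.

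**Figure D3:**
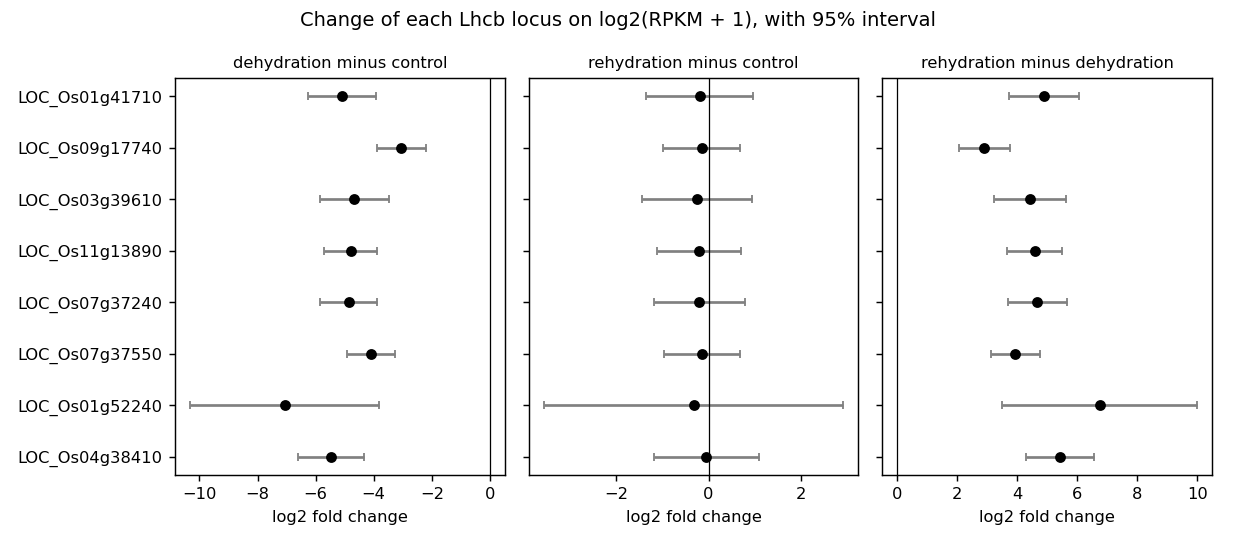
Log2 fold change of each Lhcb locus on the log2(RPKM + 1) scale, with the 95% interval of the limma fit as a bar, for dehydration minus control, rehydration minus control and rehydration minus dehydration (each panel has its own horizontal scale). Every interval lies below 0 in the left panel, crosses 0 in the middle panel and lies above 0 in the right panel, and LOC_Os01g52240 has the widest interval in each.

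Rehydration was then compared with control, to ask how close re-watered shoots came to undried ones. None of the 8 Lhcb loci was called in either direction, and rehydration means were 79.0 to 95.7% of control means. The fitted changes ran from −0.32 for LOC_Os01g52240 to −0.05 for LOC_Os04g38410, with adjusted p of 0.805 to 0.965 in limma. None of the 8 had an unadjusted p under 0.05 in limma. With a fold over 2 also required, the count was 0 of 8 members against 2657 of 20816 loci. Across all loci tested, 2.93% were called in either direction. All 8 fitted values were below 0. The median was −0.20 for the members and −0.002 for all loci. Only LOC_Os01g41710 and LOC_Os03g39610 had both rehydration libraries below both control libraries, 2 of 8 against 28.5% of all loci.

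The intervals were wide. For LOC_Os07g37550, the member with the smallest SE, the 95% interval of the rehydration to control ratio was 0.51 to 1.60, and for LOC_Os01g41710 it was 0.39 to 1.96. For LOC_Os01g52240 it was 0.08 to 7.56, because the fit shares the spread of its dehydration libraries. The same sharing applies to every member, and in each the ratio between dehydration replicates was larger than that between control or rehydration replicates. These intervals thus also carry the dehydration spread. In this fit, a difference of up to about these sizes was not detectable, so the missing calls do not show equal levels.

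Rehydration against dehydration gave the mirror view. Of the 8 loci, 7 were called higher in rehydration shoots, against a background of 11.6% of all loci tested. LOC_Os04g38410 rose by 5.42 (SE 0.48, adjusted p = 0.00118), LOC_Os11g13890 by 4.59 (SE 0.39, adjusted p = 0.00116) and LOC_Os09g17740 by 2.91 (SE 0.35, adjusted p = 0.00212) on the log2 scale in limma. LOC_Os01g52240 had a fitted value of 6.75 (SE 1.37) and missed the threshold with an adjusted p of 0.0108 in limma. It was called without dehydration replicate 1, at 4.204, and without dehydration replicate 2, at 9.29. Both rehydration libraries were above both dehydration libraries in 8 of 8 members, as in 48.5% of all loci tested. This comparison shares its dehydration libraries with the first, so the 2 are not independent. The calls rested on having both rehydration libraries, as did those of nearly all loci. Without rehydration replicate 1, 0 of 8 members and 1 of 20517 loci were called, and without rehydration replicate 2, 0 of 8 members and 0 of 20472 loci, with adjusted p of 0.0127 to 0.0247 in limma for the 7 loci. The members' median change was 4.48 in the first of these fits and 4.77 in the other, against 0.29 and 0.27 for all loci. Without dehydration replicate 1 or without dehydration replicate 2, 8 of 8 were called.

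At the level of transcript models, 6 loci had 1 model and 2 loci had several. LOC_Os11g13890 had 5 models and LOC_Os03g39610 had 2. Of the 13 models, 12 reached 1 RPKM in at least 2 libraries and were tested. In limma 9 of 12 were called lower in dehydration than in control (background 13.4% of 26790 models), 0 of 12 were called between rehydration and control (background 0.847% in either direction), and 9 of 12 were called higher in rehydration than in dehydration (background 4.32%). The same 3 models were not called in dehydration against control and in rehydration against dehydration, namely LOC_Os01g52240_1, LOC_Os03g39610_2 and LOC_Os11g13890_4. The count for rehydration against dehydration became 0 of 12 without either control replicate, without either rehydration replicate and without dehydration replicate 1, fits in which 0 models of the whole table were called. It was 10 of 12 without dehydration replicate 2, where 1482 of 26119 models were called. The count for dehydration against control was 5 of 12 without control replicate 1 (1097 of 25967 models) and 7 of 12 without control replicate 2 (1533 of 25807 models), and 9 or 10 without any other library.

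One model carried nearly all signal of each locus with several models. LOC_Os11g13890_1 held 96.5 and 96.0% of its locus in rehydration shoots, 99.2 and 98.9% in dehydration shoots and 96.5 and 96.6% in control shoots. LOC_Os11g13890_2 had 26.2 and 29.5 RPKM in rehydration shoots, 0 and 0.848 RPKM in dehydration shoots and 24.3 and 25.5 RPKM in control shoots, and was called lower in dehydration than in control at −4.25 (SE 0.32, adjusted p = 0.000635 in limma). LOC_Os11g13890_6 had 14.7 and 13.4 RPKM in rehydration shoots, 0.277 and 0 RPKM in dehydration shoots and 19.7 and 14.9 RPKM in control shoots, and was also called lower, at −4.00 (SE 0.26, adjusted p = 0.000487 in limma). Both were thus called in the same direction as LOC_Os11g13890_1. Because of the values at 0, the size of these changes depends on the pseudocount, and with 0.1 they were −6.34 for LOC_Os11g13890_2 and −6.47 for LOC_Os11g13890_6.

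LOC_Os11g13890_4 differed between replicates, with 8.54 and 0 RPKM in rehydration shoots, 0 in both dehydration libraries and 9.76 and 2.45 RPKM in control shoots. LOC_Os11g13890_5 never passed 2.03 RPKM and was not tested. The 4 minor models summed to 49.4 and 43.9 RPKM in rehydration shoots, 0.277 and 0.848 RPKM in dehydration shoots and 55.8 and 43.5 RPKM in control shoots. Their share of the locus was 3.49 and 3.96% in rehydration shoots, 0.794 and 1.13% in dehydration shoots and 3.46 and 3.36% in control shoots. In dehydration replicate 1, the count of 0 of LOC_Os11g13890_4 alone allows up to 2.38% of the locus. That of LOC_Os11g13890_5 allows up to 0.807% and that of LOC_Os11g13890_2 up to 0.445%. A lower summed share was thus not detectable in that library at this depth. For LOC_Os11g13890_2 alone, the bound lay below its control shares of 1.51 and 1.97%. In dehydration replicate 2 the bounds were 1.009% for LOC_Os11g13890_4, 0.342% for LOC_Os11g13890_5 and 0.168% for LOC_Os11g13890_6. Added to the 1.13% seen there, they stayed below the summed control shares. The direct test of balance given below made no call.

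For LOC_Os03g39610 the minor model was highest after re-watering. LOC_Os03g39610_2 had 4.401 and 11.7 RPKM in rehydration shoots, 0 in both dehydration libraries and 1.19 and 2.89 RPKM in control shoots. These were 0.323 and 0.918% of the locus in rehydration shoots and 0.0723 and 0.194% in control shoots. The rehydration and control values did not overlap, but the difference of 1.503 (SE 0.50) was not called, with an unadjusted p of 0.0228 and an adjusted p of 0.158 in limma. A count of 0 in the dehydration libraries allows up to 0.454 and 0.127% of the locus, which spans the control shares, so a change of share on drying was not detectable at this depth.

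A direct test of the balance between each model and the rest of its locus gave no call for the 6 member models tested in any of the 3 comparisons. The background was 0.0415% of the 12038 models tested for dehydration against control, and 0 calls for each of the other comparisons. The smallest member p was 0.00462, for LOC_Os03g39610_1 in dehydration against control (adjusted p = 0.118 in limma), where the minor model was at 0.

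**Figure D4:**
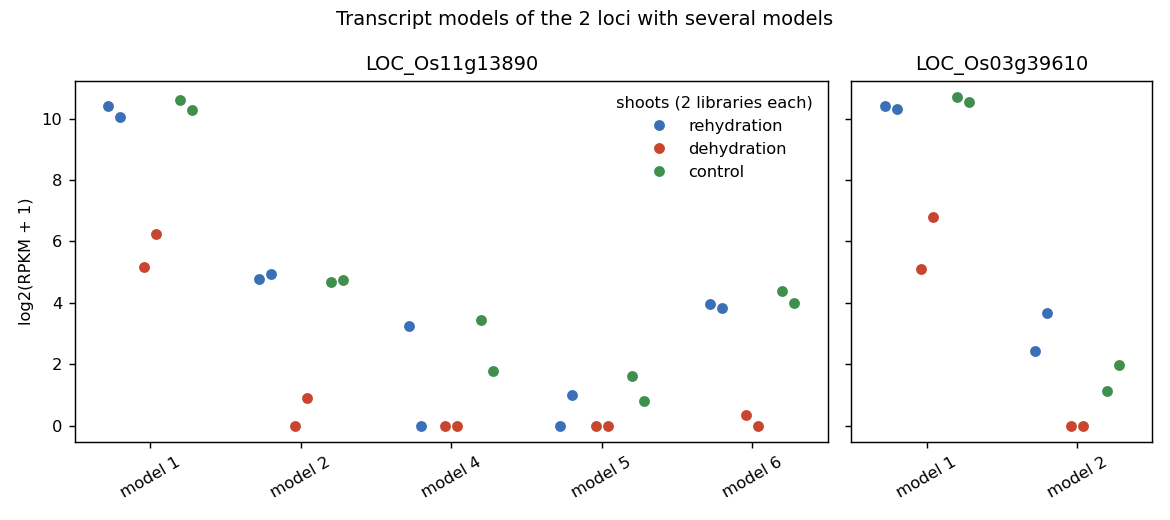
Level of each transcript model of LOC_Os11g13890 (left) and LOC_Os03g39610 (right) as log2(RPKM + 1), with 1 point per library and the groups from left to right as rehydration, dehydration and control. Model 1 is far above the others in both loci, and model 2 of LOC_Os03g39610 lies highest in rehydration shoots and at 0 in dehydration shoots.

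Other nuclear genes of photosynthesis went down on drying in the same libraries. The lists were written from general knowledge, apart from the loci that the study's tables annotate, among them all 3 Rubisco small chain loci. The study's gene tables list genes that it found differentially expressed, largely in these same libraries. Calls of the loci annotated there, also those named in the next paragraphs, were thus partly fixed in advance and are not independent support. In dehydration against control, all 6 photosystem I antenna loci, all 8 nuclear photosystem II loci, all 9 nuclear photosystem I loci and all 3 Rubisco small chain loci were called lower, with median changes of −3.24, −3.37, −3.36 and −4.26 on the log2 scale. The members' median was −4.83 and that of all loci was −0.35. In rehydration against control none of these lists had a called locus, and their medians were −0.36, −0.40, −0.48 and −0.16. In rehydration against dehydration, 6 of 6, 7 of 8, 8 of 9 and 3 of 3 loci were called higher. Whether the Lhcb loci differed from these lists was not tested.

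**Figure D5:**
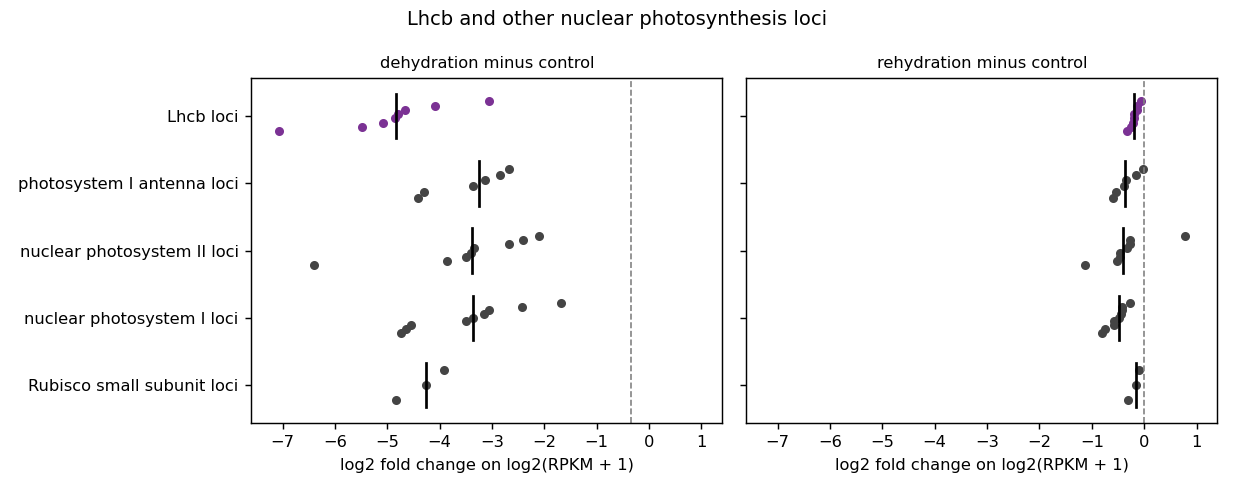
Log2 fold change on the log2(RPKM + 1) scale of the Lhcb loci and of 4 other lists of nuclear photosynthesis loci, with 1 point per locus, a black bar at the list's median and a dashed line at the median of all loci tested. In dehydration minus control every point lies left of the dashed line at −0.35 and the Lhcb median is −4.83, while in rehydration minus control the Lhcb points lie between −0.32 and −0.05.

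Among the annotated loci, LOC_Os01g59090, of the PsbP family that serves the oxygen-evolving side of photosystem II, had 52.2 and 43.7 RPKM in rehydration shoots, 1.81 and 4.79 RPKM in dehydration shoots and 65.6 and 51.1 RPKM in control shoots. LOC_Os04g59440, the 22 kDa photosystem II protein known for its part in dissipating light energy as heat, had 89.3 and 74.9 RPKM in rehydration shoots, 12.6 and 8.28 RPKM in dehydration shoots and 39.4 and 56.6 RPKM in control shoots. Its rehydration values lay above control without a call (log2 difference 0.78, SE 0.26, adjusted p = 0.118 in limma). LOC_Os12g23200, subunit XI of photosystem I, had 654 and 584 RPKM in rehydration shoots, 160 and 182 RPKM in dehydration shoots and 996 and 861 RPKM in control shoots.

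Lhcb proteins need chlorophyll to be stable, and 3 annotated loci of chlorophyll turnover did not move as one. LOC_Os10g35370, annotated as a protochlorophyllide oxidoreductase of chlorophyll synthesis, had 135 and 109 RPKM in rehydration shoots, 4.81 and 6.78 RPKM in dehydration shoots and 126 and 123 RPKM in control shoots, and fell by 4.23 on drying (SE 0.21, adjusted p = 5.83e-05 in limma). LOC_Os03g05310, annotated as pheophorbide a oxygenase of chlorophyll breakdown, had 54.7 and 45.9 RPKM in rehydration shoots, 104 and 77.7 RPKM in dehydration shoots and 32.5 and 33.8 RPKM in control shoots, and rose by 1.41 (SE 0.20, adjusted p = 0.00136 in limma). LOC_Os02g54980, which carries the same annotation, had 73.5 and 61.3 RPKM in rehydration shoots, 80.3 and 51.7 RPKM in dehydration shoots and 35.6 and 44.9 RPKM in control shoots, and was not called on drying (0.68, SE 0.26, adjusted p = 0.0573 in limma).

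The loci with profiles most like the family were sought among the 848 other loci with a mean of at least 100 RPKM. The measure was the Euclidean distance between centred log2(RPKM + 1) values over the 6 libraries and the mean profile of the 8 members. The closest were LOC_Os04g38600 at 0.299, LOC_Os12g19470 at 0.449, LOC_Os06g40640 at 0.530, LOC_Os02g51020 at 0.535 and LOC_Os09g30340 at 0.563. LOC_Os12g19470 is annotated as Rubisco small chain, and LOC_Os09g30340 is in the photosystem I list. LOC_Os04g38600 had 692 and 538 RPKM in rehydration shoots, 10.1 and 33.9 RPKM in dehydration shoots and 721 and 603 RPKM in control shoots. The members themselves lay at distances of 0.269 for LOC_Os01g41710 to 3.42 for LOC_Os01g52240, with LOC_Os09g17740 at 2.21. The distance of LOC_Os01g52240 includes its value of 0 in dehydration replicate 1. The distances of 4 of the 8 members were thus larger than those of these 5 loci. These 5 were picked as the closest of 848 and the members were not picked by distance, so this comparison is a description only.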

How the data were processed

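The authors made stranded mRNA libraries (TruSeq), sequenced them as paired ends of 75 bases on a MiSeq, mapped reads to the MSU 7.0 rice genome with CLC Genomics Workbench 20.0.4 and deposited RPKM for each transcript model and library. RPKM scales by transcript length and mapped reads only. The summed RPKM of a library was 539105 to 573137. With the study's mapped reads, RPKM of 1656 of 1656 transcripts examined gave whole reads (within 1e-06 reads) in all 6 libraries, known up to a whole-number multiple. The depth of the shallowest library was 0.862 of the deepest.

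Values were analysed as log2(RPKM + 1), so fold changes of low genes are understated, in limma 3.58.1 (R 4.3.3, trend) with 1 fit of 3 groups and 3 residual degrees of freedom. Models or loci with at least 1 RPKM in at least 2 of 6 libraries were tested, 26790 and 20816, with Benjamini-Hochberg adjustment over all of them. A call needed an adjusted p under 0.01 and a fold over 2. The procedure was also run on simulated data with independent normal noise, in which only some abundant transcripts were changed. That setting is simpler than these data, so it does not measure the error rates here. Tables and plots used Python 3.11.15, numpy 2.4.6, pandas 2.3.3 and matplotlib 3.10.9.

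Members and lists were chosen with earlier results of these data known. Every member is named. Of other lists, only loci annotated in the study's tables are named with a role, plus the 5 loci outside the family with the closest profile. A lookup of the members in the RefSeq gene table (39387 genes) matched 0 loci. Alternatives were a pseudocount of 0.1, no filter, median-ratio and quantile scaling, a replicate block, an adjusted p under 0.05, the most abundant model alone, and each library left out. In the last, a lone library of a group is assumed to vary like the other groups.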

Additional observations from a re-analysis of the deposited data

How the results depend on the processing

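For dehydration minus control, 46 of 48 fits of a member locus with a library left out and 54 of 56 other alternatives kept the call and direction, and the 4 exceptions were those of LOC_Os01g52240 given above. Members called numbered 7 to 8 loci and 5 to 10 models with a library left out. For rehydration minus control no member was called under any alternative. The small fitted values of 2 loci changed sign. With a library left out, LOC_Os04g38410 ran from −0.31 to 0.21, positive without control replicate 1 and without rehydration replicate 2 (0.13). LOC_Os09g17740 ran from −0.30 to 0.014, positive without rehydration replicate 2, and was 0.065 with quantile normalization. For rehydration minus dehydration, 0 to 8 loci and 0 to 10 models were called with a library left out, and 0 of the models without the filter. LOC_Os01g52240 was called there with quantile normalization (adjusted p = 0.00831 in limma), and LOC_Os09g17740 was not called without the filter (adjusted p = 0.0113 in limma). The family share was 1.54 to 1.75% in rehydration, 0.0625 to 0.146% in dehydration and 1.77 to 2.04% in control with a library left out.

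Counts over all models moved more. Against main counts of 5987 for dehydration minus control, 227 for rehydration minus control and 1427 for rehydration minus dehydration, an adjusted p under 0.05 gave 9719, 1316 and 5008. Leaving a library out gave 1097 to 4508, 0 to 129 and 0 to 1482. For rehydration minus control, a pseudocount of 0.1 gave 142, no filter 53 and quantile normalization 341. For rehydration minus dehydration, a pseudocount of 0.1 gave 702 and no filter gave 10. The 5 model balance calls of dehydration minus control became 0 with a pseudocount of 0.1, with the replicate block and with any library left out. Scaling shifted the split of calls. Of loci called for dehydration minus control, 64.1% were lower, against 48.0% after median-ratio scaling and 51.8% after quantile normalization. Of those called for rehydration minus dehydration, 79.8% were higher, against 53.9 and 60.7%. All 8 members stayed lower on drying under both scalings.

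Whether same-numbered libraries were handled together is not stated in the sources used here. Deviations of same-numbered libraries correlated at 0.20 for rehydration with dehydration, 0.13 for rehydration with control and 0.06 for dehydration with control over 26790 models. With a replicate block, 6317, 284 and 1358 models were called for dehydration minus control, rehydration minus control and rehydration minus dehydration. Of all loci, 7930, 1233 and 4011 were called with the block, against 7124, 609 and 3036 without it. Of the Lhcb loci, 8, 0 and 8 were called with the block. LOC_Os01g52240 was then called higher in rehydration than in dehydration (6.75, adjusted p = 0.00553 in limma). In the main fit, with 2 libraries per group and a spread shared with dehydration, differences smaller than the intervals given above could not be seen.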

Other observations

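Replicates were also compared in the other photosynthesis lists. Of the 26 loci of the photosystem I antenna, photosystem II, photosystem I and Rubisco small chain lists, 25 were higher in dehydration replicate 2 than in dehydration replicate 1, while 36.4% of all loci tested were higher in replicate 1. LOC_Os04g59440 was the exception, with 12.6 RPKM in replicate 1 and 8.28 RPKM in replicate 2. In control shoots 23 of the 26 loci were higher in replicate 1 (38.5% of all loci tested), and in rehydration shoots 22 of 26 (49.4% of all loci tested).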
